A study of Mus musculus with 8 samples.

Results

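The genes of glycolysis, glucose sensing and the hypoxia response were examined in cultured mouse hepatic stellate cells of myofibroblastic state (pMF-HSCs) after inhibition of O-GlcNAc transferase (OGT). The group holds 40 genes of the 40840 in the deposited tables, and all 40 had enough counts to be tested. It was chosen by name for known function, with earlier results of these data known. It comprises 3 glucose transporters, 9 enzymes of upper glycolysis, 2 enzymes that set fructose 2,6-bisphosphate, 6 enzymes of lower glycolysis, 6 genes of pyruvate and lactate fate, 4 glucose sensing genes, 3 hypoxia-inducible factors (HIFs), 3 genes of HIF degradation and 4 genes known to be induced by hypoxia. RNA-seq was performed on polyadenylated RNA from 8 cultures. Hepatic stellate cells of wild-type C57BL/6J males aged 15 to 18 weeks had been sorted by the autofluorescence of their stored retinol and became myofibroblastic during 7 days in culture. They then received vehicle (DMSO; control, n = 4) or the OGT inhibitor OSMI-1 at 50 µM (OGTi, n = 4) for 24 h, as 4 independent experiments in which a control and an OGTi culture share a replicate number. These are sorted and cultured cells from males, studied outside the liver, with a single inhibitor at a single dose and time.

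Glycolysis turns glucose into pyruvate, which is either oxidised in mitochondria or reduced to lactate and exported, and activated stellate cells are known for a high glycolytic flux. Hexokinases trap glucose as glucose 6-phosphate, which also feeds the hexosamine pathway that makes the sugar donor used by OGT. Glucose 6-phosphate is sensed by the transcription factors MondoA (Mlxip) and ChREBP (Mlxipl), whose classical targets Txnip and Arrdc4 encode arrestin-like proteins that restrain glucose uptake. HIFs induce many glycolytic genes when oxygen is low, and in oxygen they are hydroxylated by Egln enzymes and marked for destruction by Vhl.

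Libraries held 30068876 to 37372420 expected counts. OGTi replicate 4 had a count for 23746 genes against 19035 to 20293 in the other libraries. In OGTi replicate 1, short genes stood 0.49 above and long genes 0.52 below their mean log2 level across libraries, whereas no other library departed by more than 0.24. Markers of stellate cells and myofibroblasts were abundant, with summed levels of 7340 to 14400 TPM (a transcript level scaled by gene length and depth) in control and 5860 to 14600 TPM in OGTi. Of these 12 markers, 2 were called, Pdgfrb and Lrat, and both fell (log2 FC of -1.68 ± 0.24 and -1.78 ± 0.28, SE). The median log2 FC over the 12 was -0.45, and 18.4% of all genes tested were called. Hepatocyte markers summed to at most 1.86 TPM in any library, with 1 of 4 tested called (Cyp2e1, higher), and endothelial markers to at most 2.99 TPM, with 2 of 7 called (Tek and Lyve1, lower). The median log2 FC was 1.34 over the 4 hepatocyte markers tested and -0.54 over the 7 endothelial markers. Macrophage markers summed to 49.8 to 174 TPM in control and 88.4 to 228 TPM in OGTi. Most of this came from Lyz2 and Cd68, while the leukocyte marker Ptprc stayed at or below 0.11 TPM, and 1 of 7 was called (Cd68, higher, log2 FC of 1.5 ± 0.21), with a median log2 FC of -0.03 over the 7. Cholangiocyte markers summed to 87 to 139 TPM in control and 46.7 to 79.7 TPM in OGTi, nearly all from Krt19, which fell (log2 FC of -0.66 ± 0.20), with Epcam at or below 0.79 TPM and a median log2 FC of -0.45 over the 4 tested. The part of these markers in the results for the members was not tested. In bulk RNA, fewer cells of a type and less RNA per cell cannot be told apart.

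OGTi changed 8 of the 40 members. Ndrg1, Ankrd37 and Slc2a1 rose, and Txnip, Pdk4, Hk1, Pfkfb3 and Hk2 fell (edgeR quasi-likelihood test, replicate number as block, called at 0.05 after Benjamini-Hochberg adjustment over all genes tested). Across all 19963 genes tested 18.4% were called, 8.13% higher and 10.2% lower in OGTi. The share of the members called (20%, with 7.5% higher and 12.5% lower) was thus near that of all genes, and their median log2 FC was 0.10 against 0.01 for all genes. What follows is therefore an account of which genes moved and which did not, not of a group that moved more often than others. Measured on scaled counts (counts adjusted for library size and composition), the OGTi libraries lay wholly above the control libraries for 3 members (Ndrg1, Pfkp and Aldoa) and wholly below for 6 (Txnip, Pdk4, Hk1, Pfkfb3, Slc16a3 and Vhl). Over all genes these shares were 11.5% and 12.0%. Of the 8 calls, Ndrg1 and Txnip held under each of the 13 other ways of analysing the data that were tried, and the other 6 were lost under 1 to 7 of them.

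**Figure D1:**
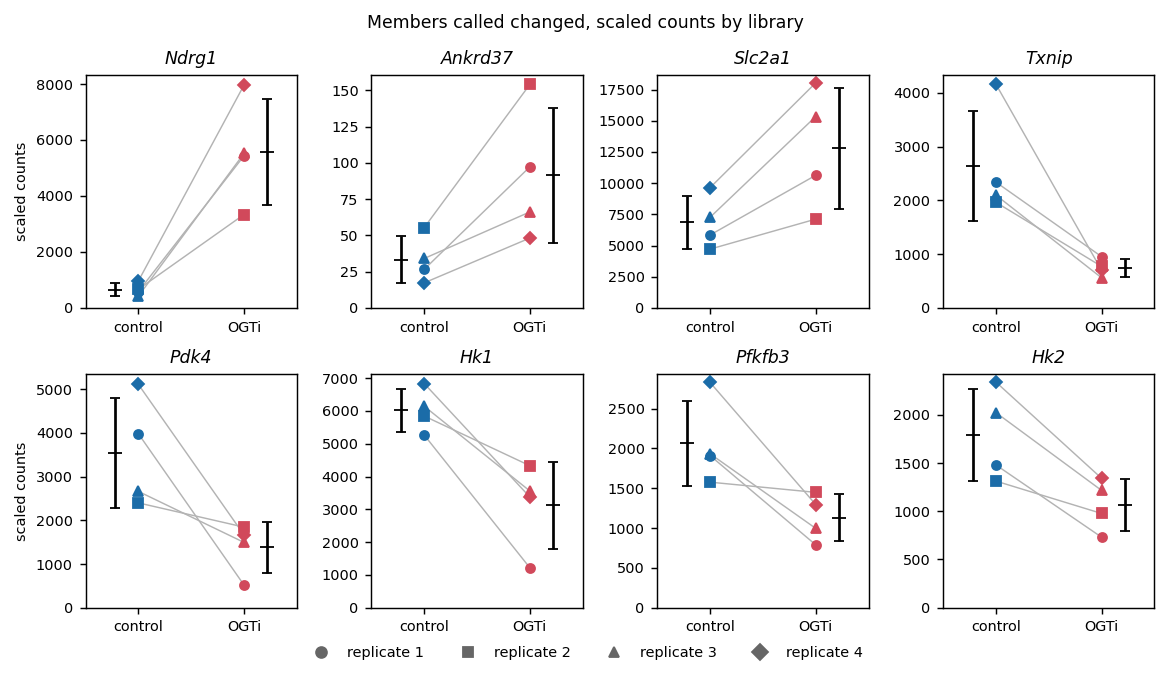
Scaled counts (y axis, linear from 0) of the 8 members called changed, in control (blue) and OGTi (red) cultures, with symbols for replicates 1 to 4, grey lines joining cultures of the same replicate and black bars giving the mean and SD of each group (n = 4). All 4 lines rise for Ndrg1, Ankrd37 and Slc2a1 and all 4 fall for Txnip, Pdk4, Hk1, Pfkfb3 and Hk2, while the groups overlap for Ankrd37, Slc2a1 and Hk2.

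Entry of glucose into the cell was represented by Slc2a1, Slc2a3 and Slc2a4, which encode the transporters GLUT1, GLUT3 and GLUT4. Slc2a1, the GLUT1 of most proliferating cells, had 5845, 4714, 7263 and 9638 scaled counts in control replicates 1 to 4 and 10631, 7119, 15342 and 18042 in OGTi replicates 1 to 4. Each OGTi culture exceeded the control of its own replicate, although OGTi replicate 2 was below control replicates 3 and 4. Slc2a1 thus rose 1.82-fold (log2 FC of 0.86 ± 0.18, SE; adjusted p = 0.0102, edgeR). The call was lost without replicate 3 (adjusted p = 0.0736) and without the replicate block (adjusted p = 0.0763). Slc2a1 was by far the main transporter of the 3, at 148 TPM ± 47 (SD, n = 4) in control and 218 TPM ± 84.7 in OGTi, and made up 98.4% to 99.8% of their summed TPM in every library. Slc2a3 stood at 0.02 to 1.76 TPM and Slc2a4, the insulin-regulated transporter of muscle and fat, at 0 to 0.35 TPM, and neither was called.

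Both hexokinases of the group, which phosphorylate glucose in the first step of glycolysis, fell. Hk1, the broadly expressed isoform, had 5265, 5844, 6143 and 6835 scaled counts in control and 1218, 4330, 3559 and 3375 in OGTi. Every OGTi culture was below every control culture, and OGTi replicate 1 was the lowest. Hk1 fell by 1.08 ± 0.28 in log2 FC, which is 2.11-fold lower (edgeR, adjusted p = 0.0226). Without replicate 1 the log2 FC was -0.74, and the call was lost without replicate 3 (adjusted p = 0.0511), without replicate 4 (0.0791) and without the replicate block (0.0723). Hk2, the isoform known to respond to insulin and hypoxia, had 1480, 1313, 2023 and 2339 scaled counts in control and 731, 977, 1216 and 1342 in OGTi. All 4 OGTi cultures were below their own controls, with OGTi replicate 4 just above control replicate 2. Hk2 fell by 0.75 ± 0.21 (adjusted p = 0.0337, edgeR), and this call was lost when any replicate was left out (adjusted p of 0.0524, 0.057, 0.148 and 0.111 without replicates 1 to 4), without the replicate block (0.082), with upper-quartile scaling (0.0691) and after removing the trend with gene length (0.0612). Per gene length Hk1 was the main isoform, at 80.2 TPM ± 9.49 in control and 34.5 TPM ± 17.3 in OGTi, against 17.5 TPM ± 4.86 and 8.42 TPM ± 2.53 for Hk2. Hk2 made up 17.7% ± 2.69 (SD, n = 4) of the summed TPM of both in control and 21.8% ± 6.72 in OGTi, higher in OGTi in all 4 pairs but with overlapping values.

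None of the other 7 members of upper glycolysis was called. Gpi1, which converts glucose 6-phosphate to fructose 6-phosphate, had a log2 FC of 0.42 ± 0.19 (adjusted p = 0.164, edgeR). Tpi1, which interconverts the triose phosphates, had one of 0.44 ± 0.20 (adjusted p = 0.162, edgeR). Without replicate 1 these were 0.27 for Gpi1 and 0.26 for Tpi1, and on log2(TPM + 1) they were 0.09 and 0.12. Aldoa, the main aldolase and the member of upper glycolysis with the highest mean TPM, had 58711, 56023, 54124 and 59176 scaled counts in control and 87495, 68307, 70712 and 60522 in OGTi. The groups did not overlap on this scale, yet the difference did not pass the test (log2 FC of 0.32 ± 0.17, adjusted p = 0.231, edgeR) and was absent on the TPM scale, where Aldoa stood at 2120 TPM ± 75.3 in control and 2120 TPM ± 211 in OGTi. Aldoc, the aldolase of brain, had 1 to 44 counts per library.

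The 3 genes for phosphofructokinase, the committed step of glycolysis, differed among themselves in direction without any passing the test. Pfkp, the platelet-type gene, had 4097, 4437, 5295 and 5430 scaled counts in control and 6238, 6016, 7700 and 7505 in OGTi, without overlap (log2 FC of 0.51 ± 0.18, adjusted p = 0.0792, edgeR). Pfkm, the muscle-type gene, was lower in all 4 pairs (log2 FC of -0.74 ± 0.26, adjusted p = 0.0771, edgeR). Pfkl, the liver-type gene, had a log2 FC of 0.12 ± 0.19. In each pair Pfkp therefore took a larger share of the summed TPM of the 3 genes in OGTi than in control (37.6% ± 3.62 in control, 45.6% ± 4.97 in OGTi) and Pfkm a smaller one (7.56% ± 2.13 and 3.81% ± 0.984), while the summed level was 138 TPM in control and 131 TPM in OGTi. The shares are given without a test. TPM lacks the adjustment for library composition that scaled counts have. Mean scaled counts went from 4815 in control to 6865 in OGTi for Pfkp, from 5645 to 6181 for Pfkl and from 568.9 to 336.5 for Pfkm. Pfkp passed the test under 4 of the 13 alternatives and Pfkm under 4.

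Fructose 2,6-bisphosphate is the strongest known activator of phosphofructokinase, and its amount is set by the PFKFB enzymes. Pfkfb3, whose enzyme strongly favours its synthesis, had 1911, 1577, 1933 and 2829 scaled counts in control and 790, 1448, 996 and 1296 in OGTi. The groups did not overlap, though the replicate 2 cultures differed by a log2 ratio of only -0.12. Pfkfb3 fell by 0.87 ± 0.25 (adjusted p = 0.0332, edgeR), which is 1.83-fold lower, and the call was lost without replicates 1, 3 and 4 (adjusted p of 0.0778, 0.136 and 0.132) and after removing the trend with gene length (0.0516). Pfkfb4 did not pass the test (log2 FC of -0.13 ± 0.29). Among the 4 PFKFB genes, of which Pfkfb1 and Pfkfb2 are not members, Pfkfb3 took 62.6% ± 4.91 of the summed TPM in control and 54.9% ± 3.3 in OGTi, with overlap. Pfkfb4 took 20.6% ± 1.9 and 30.1% ± 4.02, and Pfkfb2 8.8% ± 1.75 and 13.1% ± 1.22, both without overlap, and the summed level was 34.6 TPM in control and 18 TPM in OGTi. Pfkfb1, the remaining gene of the sum, went from 2.71 TPM ± 0.334 in control to 0.29 TPM ± 0.213 in OGTi.

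**Figure D2:**
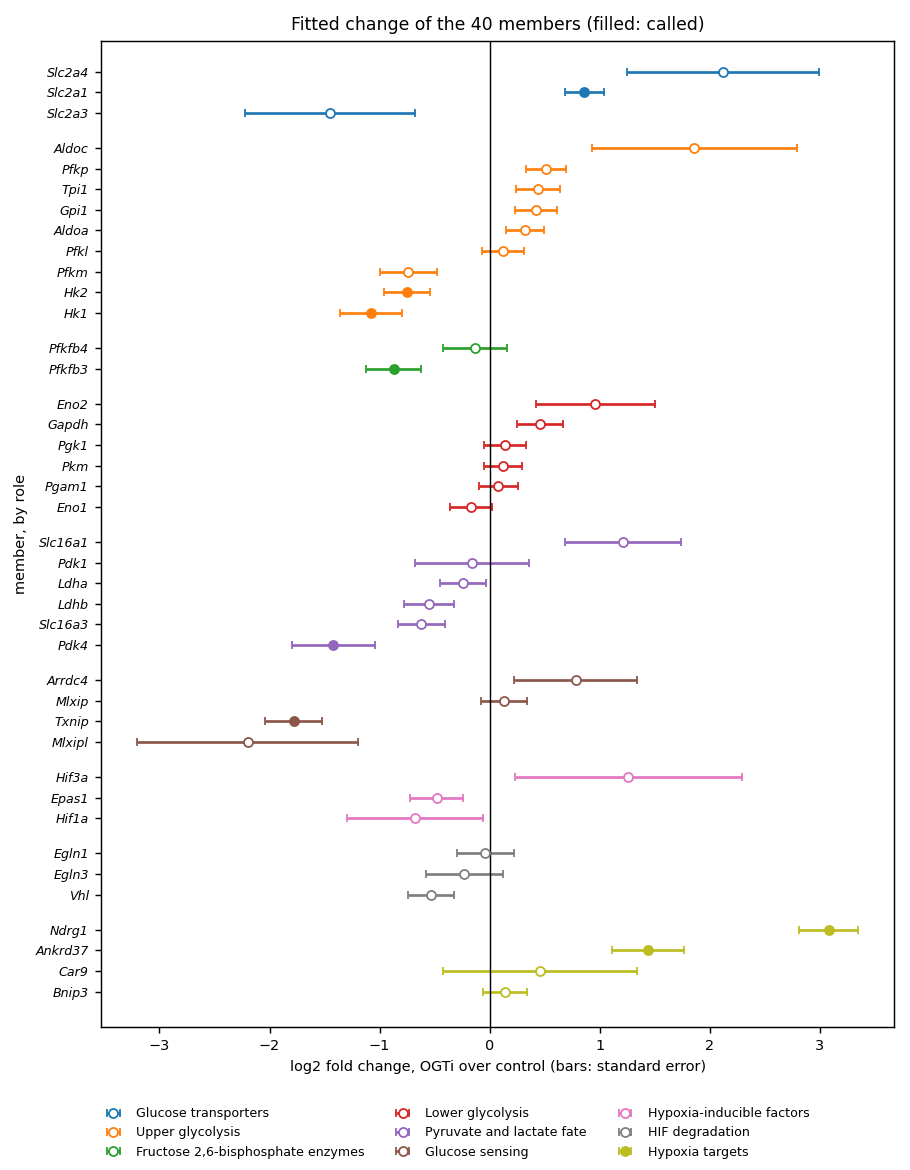
Fitted log2 fold change (x axis, OGTi over control, bars ± SE, 4 pairs of cultures) of the 40 members, grouped and coloured by role, with filled points for those called at an adjusted p of at most 0.05. The 8 filled points run from Txnip at -1.78 to Ndrg1 at 3.08, and all 6 points of lower glycolysis are open.

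Apart from Eno2, the enzymes of lower glycolysis stood between 320 and 3740 TPM in the 8 libraries, and no change was called in them. Over all 19963 genes tested, edgeR called 18.4%, DESeq2 24.3% and limma on log2(TPM + 1) 23.3%. An unadjusted p under 0.05 with edgeR was found for 6348 of them. None of the 6 enzymes of lower glycolysis passed the test with edgeR, DESeq2 or limma on log2(TPM + 1), and 0 had an unadjusted p under 0.05. Gapdh, the one of highest mean TPM and of lowest adjusted p, had 58627, 78891, 51737 and 69249 scaled counts in control and 133625, 84298, 60925 and 87508 in OGTi. OGTi replicate 1 was the highest and the groups overlapped (log2 FC of 0.46 ± 0.21, adjusted p = 0.16, edgeR). Without replicate 1 the log2 FC was 0.22. Pgk1, which yields the first ATP of the pathway, Pkm, which forms pyruvate, and the mutase Pgam1 had log2 FCs of 0.14, 0.12 and 0.08, all of which were negative on library totals alone and on TPM. Eno1, the main enolase, had a log2 FC of -0.17 ± 0.19, and Eno2, the neuronal enolase, had 10 to 81 counts per library. The values of Gapdh and Eno1 may be uncertain, because the related genes Gm12070 and Eno1b were counted beside them, and whether reads were shared was not tested. Gm12070 held 9743 to 22980 counts per library and Eno1b held 4490 to 12049. The 17 genes of glycolysis and lactate dehydrogenase measured here made up 1.32% ± 0.0627 (SD, n = 4) of all TPM in control and 1.19% ± 0.197 in OGTi, with overlapping values.

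At the fate of pyruvate, Pdk4 fell. Its product phosphorylates and switches off pyruvate dehydrogenase, the gate from glycolysis to mitochondrial oxidation, and is known to be induced by fasting. Pdk4 had 3981, 2398, 2661 and 5109 scaled counts in control and 519, 1844, 1494 and 1664 in OGTi. The groups did not overlap, with OGTi replicate 1 the lowest, and the log2 ratios of the pairs ran from -2.94 to -0.38. Pdk4 fell by 1.42 ± 0.38 in log2 FC, which is 2.68-fold lower (edgeR, adjusted p = 0.0266). Without replicate 1 the log2 FC was -0.94 and still passed the test (adjusted p = 0.0457, edgeR), and the call was lost without replicate 4 (adjusted p = 0.114). Pdk1, the kinase known as a HIF target, had 27.9 to 302 scaled counts in control and 75.8 to 207 in OGTi and was not called. Among the 4 kinase genes, Pdk4 took 43.3% to 81.6% of the summed TPM in control and 20.5% to 51.3% in OGTi, and Pdk3, which is not a member, took 11.4% to 33.4% in control and 33.9% to 60.5% in OGTi. The summed level of the 4 was 93.4 TPM in control and 41.4 TPM in OGTi.

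Lactate dehydrogenase and the lactate transporters did not pass the edgeR test, although DESeq2 called Slc16a1 (adjusted p = 0.0433) and Slc16a3 (adjusted p = 0.0309). Of the 13 alternatives, 4 called Slc16a3, 3 called Slc16a1 and 3 called Ldhb. Ldha, which reduces pyruvate to lactate, had 51943, 50052, 51186 and 62439 scaled counts in control and 66090, 46033, 36053 and 38887 in OGTi. OGTi replicate 1 was above and the other 3 OGTi cultures below every control (log2 FC of -0.24 ± 0.21, adjusted p = 0.469, edgeR). The log2 FC was -0.43 without replicate 1 and -0.08 without replicate 4. Ldhb, which favours the reverse reaction, was lower in all 4 pairs (log2 FC of -0.55 ± 0.23, adjusted p = 0.135, edgeR). Slc16a3, the lactate exporter MCT4, had 1301, 1329, 1585 and 1423 scaled counts in control and 787, 781, 1014 and 1129 in OGTi. Its groups did not overlap, but the fit gave a log2 FC of -0.62 ± 0.21 at an adjusted p of 0.0665 (edgeR). Slc16a1, the transporter MCT1, had 1438, 1655, 865 and 775 scaled counts in control and 876, 2165, 5458 and 4158 in OGTi. It was higher in OGTi replicates 2, 3 and 4 and lower in replicate 1 than in the controls of the same number (log2 FC of 1.21 ± 0.53, adjusted p = 0.148, edgeR). Leaving out replicate 1 gave 1.85 at an adjusted p of 0.0295, whereas leaving out replicate 3 or replicate 4 gave 0.67 and 0.75, both at an adjusted p of 0.454 (edgeR). The share of Slc16a1 in the summed TPM of both transporters was larger in OGTi than in control in all 4 pairs (30.5% ± 9.34 in control, 59.4% ± 15.9 in OGTi). In replicate 1 it was 37.2% in control against 37.4% in OGTi. The summed level of both was 44.4 TPM in control and 46 TPM in OGTi. In scaled counts, adjusted for composition, the means went from 1183 to 3164 for Slc16a1 and from 1409 to 928 for Slc16a3.

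**Figure D3:**
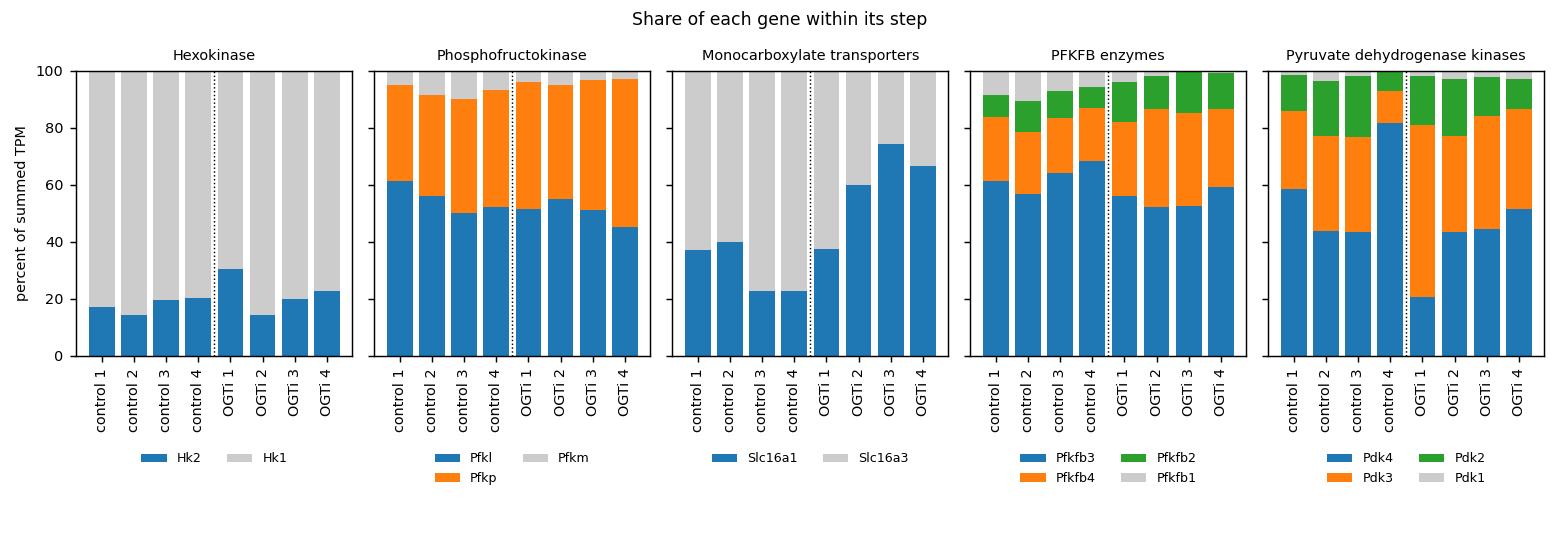
Share of each gene in the summed TPM of its step (y axis, percent) in each library, for hexokinases, phosphofructokinases, monocarboxylate transporters, PFKFB enzymes and pyruvate dehydrogenase kinases, with control left and OGTi right of the dotted line. Slc16a1 takes 22.5% to 39.9% of its step in control and 37.4% to 74.2% in OGTi, and the share of Hk2 is 14.1% to 20.1% in control and 14.2% to 30.4% in OGTi.

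Txnip showed the largest fall of the members that were called. Its protein binds thioredoxin, lowers glucose uptake and is a standard readout of MondoA and ChREBP activity. Txnip had 2341, 1965, 2100 and 4162 scaled counts in control and 955, 773, 561 and 702 in OGTi. The OGTi cultures were close to each other and all below the lowest control, while control replicate 4 was far above the other controls. Txnip fell by 1.78 ± 0.26 in log2 FC, which is 3.42-fold lower (edgeR, adjusted p = 0.00182), and by 1.5 without replicate 4 (adjusted p = 0.0113). Its close relative Arrdc4, also a classical MondoA target, had 483, 2086, 836 and 366 scaled counts in control and 498, 814, 3738 and 1607 in OGTi. The spread within both groups was wide, with control replicate 2 and OGTi replicate 3 the highest, and the log2 ratios of the pairs ran from -1.36 to 2.16. Arrdc4 did not pass the test (log2 FC of 0.78 ± 0.56, adjusted p = 0.379, edgeR), with log2 FCs of 1.5 without replicate 2, 0.25 without replicate 3 and 0.27 without replicate 4, and whether its response differs from that of Txnip was not tested. The sensor Mlxip was measured at 594 to 949 scaled counts in control and 694 to 876 in OGTi (log2 FC of 0.13 ± 0.21). Mlxipl was nearly absent, with 0, 19, 12 and 19 counts in control and 0, 7, 1 and 2 in OGTi, and was not called.

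The promoters of Txnip and Arrdc4 are shown because both genes are known targets of the same sensors. Only Txnip was called, and whether the promoter sequences bear on the values of either gene was not tested. In each, the 250 bases before the annotated start are printed 5′ to 3′ in the direction of the gene, from GRCm39 with GENCODE starts. Capitals mark matches on either strand to ACGTG or GCGTG, the cores of hypoxia response elements, to CACGTG, the E-box bound by MondoA and ChREBP, and to CACGAG, a variant of it. A CACGTG contains ACGTG on both strands. The Txnip window is chr3:96465017-96465266, on the plus strand, and the Arrdc4 window is chr7:68399000-68399249, on the minus strand.
Txnip: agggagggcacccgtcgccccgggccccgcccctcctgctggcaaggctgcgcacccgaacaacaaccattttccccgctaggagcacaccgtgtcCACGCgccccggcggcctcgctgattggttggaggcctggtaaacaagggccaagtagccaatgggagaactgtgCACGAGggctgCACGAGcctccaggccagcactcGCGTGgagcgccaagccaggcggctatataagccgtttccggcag
Arrdc4: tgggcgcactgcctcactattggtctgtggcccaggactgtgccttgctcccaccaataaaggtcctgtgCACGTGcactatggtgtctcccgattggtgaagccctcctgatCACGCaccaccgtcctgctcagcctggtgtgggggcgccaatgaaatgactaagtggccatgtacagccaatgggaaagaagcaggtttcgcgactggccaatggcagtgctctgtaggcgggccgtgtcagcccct

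The Txnip promoter held CACGAG at -79 and at -68 from the start, with 5 bases between them on the same strand, and no match to CACGTG. The CACGAG motif and this spacing were added to the search after this sequence had been seen, so that the match in Txnip was fixed in advance. Of 21751 promoters searched from 250 bases before to 50 after the start, 1 held such a pair, that of Txnip, whereas 6.92% held CACGAG in any arrangement. Pairs of other half-sites or spacings were not searched, in Arrdc4 or elsewhere. The Arrdc4 promoter held CACGTG at -180, a motif present in 7.82% of all promoters and in those of 7 of the 40 members. Within the window searched, ACGTG or GCGTG was found in 31 of the 40 members and in 48% of all promoters. The members with such a match included genes that rose, genes that fell and genes that were not called, and a match is not evidence of binding.

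**Figure D4:**
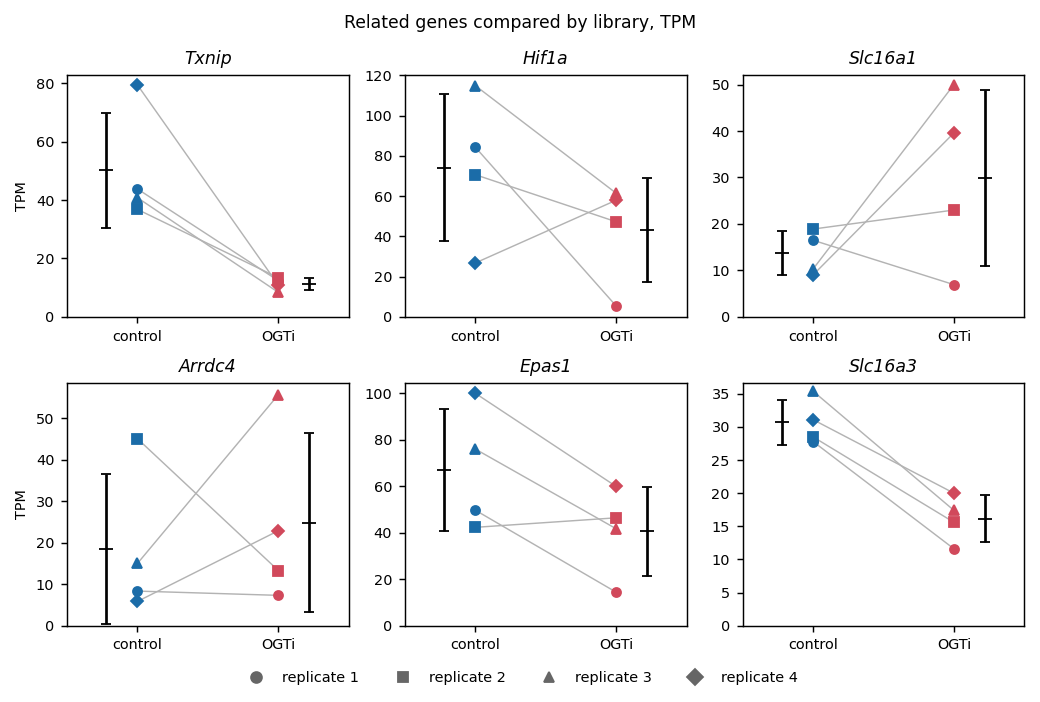
TPM (y axis, linear from 0) of 3 sets of related genes, Txnip and Arrdc4, Hif1a and Epas1, and Slc16a1 and Slc16a3, in control (blue) and OGTi (red) cultures, with symbols for replicates, grey lines joining cultures of the same replicate and black bars for the mean and SD (n = 4). All 4 lines fall for Txnip and for Slc16a3, while for the other 4 genes at least 1 line runs against the rest.

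The HIFs themselves were not called. None of the 3 passed the test with edgeR, DESeq2 or limma on log2(TPM + 1), and 0 had an unadjusted p under 0.05. Of all 19963 genes tested, these methods called 18.4%, 24.3% and 23.3%, and 6348 had such a p. Hif1a, the general hypoxia factor, had 7383, 6183, 9740 and 2305 scaled counts in control and 688, 4455, 6711 and 6096 in OGTi. Control replicate 4 and OGTi replicate 1 were each the lowest of their group, and the log2 ratios of the pairs ran from -3.42 to 1.40. The log2 FC of -0.68 ± 0.62 (adjusted p = 0.502, edgeR) turned to 0.11 without replicate 1. Epas1, which encodes HIF-2α, had 4627, 3944, 6806 and 9076 scaled counts in control and 2030, 4626, 4824 and 6586 in OGTi. It was lower in 3 of 4 pairs and the groups overlapped (log2 FC of -0.48 ± 0.24, adjusted p = 0.208, edgeR), and its log2 FC was -0.24 without replicate 1. Per gene length both were at a like level in control, with 74.4 TPM ± 36.8 for Hif1a and 67.1 TPM ± 26.5 for Epas1. Hif3a, an inhibitory family member, had 0 to 15 counts per library. HIF activity is mainly set by protein stability, which these data do not measure.

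None of the 3 genes of HIF degradation was called by edgeR or by DESeq2, while limma on log2(TPM + 1) called Vhl and 1 had an unadjusted p under 0.05 with edgeR. Of all 19963 genes tested, edgeR called 18.4%, DESeq2 24.3% and limma 23.3%, and 6348 had such a p. Vhl, the substrate-binding subunit of the ligase that destroys hydroxylated HIF, had 1954, 1703, 1999 and 2230 scaled counts in control and 1326, 1384, 1523 and 1221 in OGTi. Every OGTi culture was below every control culture, but the difference missed the threshold (log2 FC of -0.53 ± 0.21, adjusted p = 0.109, edgeR). The hydroxylases Egln1 and Egln3 had log2 FCs of -0.04 ± 0.26 and -0.23 ± 0.35, and Egln3, itself a known HIF target, was scarce at 0.76 to 2.11 TPM.

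Among the 4 genes known to be induced by hypoxia, Ndrg1 and Ankrd37 rose. Ndrg1, which encodes a protein linked to differentiation and stress and is also known to respond to signals other than hypoxia, had 583, 666, 420 and 960 scaled counts in control and 5434, 3338, 5520 and 7961 in OGTi. The lowest OGTi culture was above the highest control, and the log2 ratios of the pairs ran from 2.33 to 3.71. Ndrg1 rose 8.45-fold (log2 FC of 3.08 ± 0.27, adjusted p = 0.00021, edgeR), the largest fitted change of the 40 members, and its log2 FC was 2.65 to 3.35 under the 13 alternatives. Ankrd37, an ankyrin repeat gene known as a HIF-1 target, had 26.6, 55.4, 34.1 and 17.3 scaled counts in control and 97.3, 154, 66.2 and 48.2 in OGTi. All 4 pairs were higher in OGTi, by log2 ratios of 0.95 to 1.85, though OGTi replicate 4 was below control replicate 2. Ankrd37 rose 2.72-fold (log2 FC of 1.44 ± 0.33, adjusted p = 0.0144, edgeR). The call was lost without replicate 1 (adjusted p = 0.0503), without replicate 2 (0.0529) and without the replicate block (0.0604).

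The other 2 genes of this set, Bnip3 and Car9, were not called, and whether they differ in response from Ndrg1 and Ankrd37 was not tested. Bnip3, a mitophagy receptor and a standard HIF target, had the highest TPM of the 4 when averaged over all libraries. It had 1787, 1824, 1995 and 1349 scaled counts in control and 2111, 1837, 2471 and 1335 in OGTi, with overlap (log2 FC of 0.14 ± 0.20, adjusted p = 0.696, edgeR). Car9, a carbonic anhydrase that is among the most specific HIF-1 targets, had 5, 5, 7 and 7 counts in control and 12, 13, 4 and 3 in OGTi, too few to show a difference. Per gene length Ndrg1 went from 12 TPM ± 4.14 in control to 80.9 TPM ± 27.6 in OGTi, from below Bnip3 at 55.6 TPM ± 9.09 to above Bnip3 at 49.3 TPM ± 11.7.

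The promoter of Ndrg1 is printed because it belongs to the member of largest change, as the 250 bases before the start, at chr15:66841803-66842052 on the minus strand of GRCm39, with capitals as above.
Ndrg1: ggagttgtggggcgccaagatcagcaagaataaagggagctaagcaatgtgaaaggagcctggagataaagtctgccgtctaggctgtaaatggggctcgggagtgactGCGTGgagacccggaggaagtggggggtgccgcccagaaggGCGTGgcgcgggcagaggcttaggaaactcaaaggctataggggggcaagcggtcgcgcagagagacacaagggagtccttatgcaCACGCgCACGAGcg

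In the window searched it held 4 matches to GCGTG, 1 match to ACGTG and 1 match to CACGAG. Of all promoters searched, 37% held GCGTG and 20.7% held ACGTG.

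The wider pathways were followed through 189 further genes in 8 lists, also chosen with earlier results of these data known. Of these genes, 172 were tested and 26 called, 10 higher and 16 lower in OGTi, with a median log2 FC of -0.06. Gys1 stands in 2 of the lists and is counted in each below, but once in these totals. Among 20 tested genes of additional glycolysis and glucose uptake, 2 were called and both fell. They were Pfkfb1, a further PFKFB enzyme (log2 FC of -3.12 ± 0.47), and Slc2a10, a further transporter (-1.92 ± 0.35). Among 20 genes of pyruvate handling, 1 was called, Mpc1, a subunit of the mitochondrial pyruvate carrier, which rose (0.73 ± 0.20). Of 22 genes of gluconeogenesis and glycogen, only glycogen synthase Gys1 was called, and it fell (-0.91 ± 0.25). In the pentose phosphate and polyol pathways 3 of 16 were called. G6pdx, the entry enzyme of the cytosolic pentose phosphate pathway, rose (0.74 ± 0.19), as did Sord, sorbitol dehydrogenase (0.94 ± 0.22), and H6pd, the corresponding enzyme of the endoplasmic reticulum, fell (-1.83 ± 0.28). Mpc1, Gys1, G6pdx and Sord were each called under 8 of the 13 alternatives, and Pfkfb1, Slc2a10 and H6pd under all 13.

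Among 16 genes grouped as partners of glucose sensing, 3 rose and 3 fell. Klf15, a factor of fasting metabolism, rose (log2 FC of 3.06 ± 0.48), and Klf10 (-2.02 ± 0.36) and Prkag2, a regulatory subunit of the energy sensor AMPK (-1.32 ± 0.22), fell. Of 19 regulators of the hypoxia pathway, 1 was called, the ubiquitin ligase Siah2, which targets Egln enzymes and rose (1.71 ± 0.36).

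Of 40 further genes known to be induced by hypoxia, 3 rose and 6 fell, and their median log2 FC was -0.01. Hmox1, heme oxygenase, which is also a target of the oxidative stress factor NRF2, rose (log2 FC of 2.68 ± 0.25). Anln, a cytokinesis protein (-3.19 ± 0.36), and Adm, the vasodilator adrenomedullin (-1.63 ± 0.22), fell. Of 20 genes of the tricarboxylic acid cycle, 4 were called and all fell, among them citrate synthase Cs (-1.0 ± 0.18), Suclg2 (-1.14 ± 0.21) and Idh3g (-0.96 ± 0.24). Each of these called genes had an adjusted p of at most 0.05 over all genes (edgeR), against 18.4% of all genes called.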

How the data were processed

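RNA was measured in 4 control and 4 OGTi libraries, grouped by their titles. The authors mapped paired-end reads of stranded, oligo(dT)-enriched libraries with Bowtie2 2.3.5.1 to mm39 (GRCm39) and counted them with RSEM 1.3.1. The deposited tables hold expected counts (estimates that need not be whole) and TPM per gene. A deposited DESeq2 1.36.0 comparison (fold changes, p-values) was not used.

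Expected counts were rounded, and the 19963 of 40840 genes with at least 10 counts in total were fitted with edgeR 4.0.16 (R 4.3.3; TMM, glmQLFit, glmQLFTest) with the replicate number as block. P-values were adjusted by Benjamini-Hochberg over all genes tested and called at 0.05. The standard error is the log2 FC divided by the root of F. Scaled counts are counts over the TMM-adjusted library size times its mean. The study's methods state the pairing. Deviations of same-numbered libraries from their group means correlated at 0.197, 0.283, 0.204 and 0.433, and those of other pairs at -0.489 to 0.28, across genes, which are not independent replicates. The fit was tested on simulated data. A member that was not called may still have changed.

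DESeq2 1.42.0, limma 3.58.1 on log2(TPM + 1) and log2(TPM + 0.1), other scalings and filters, removal of the trend with gene length, the model without the block and leaving out each replicate were alternatives. Promoters were read from GRCm39 with GENCODE vM39 starts, 250 bases before to 50 after, because the RefSeq promoter table at hand is of another build. PCR duplicates cannot be told from separate molecules in these reads.

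The members and lists were chosen with earlier results of these data known. Library values were given for every called member, for the member of lowest adjusted p in a role group without a call, and for the member of highest mean TPM in each role group. Those of Pfkp, Slc16a1, Slc16a3, Arrdc4, Mlxipl and Car9 were added after their values were seen. Of each further list at most the 3 called genes of lowest adjusted p were named.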

Additional observations from a re-analysis of the deposited data

Results flagged for a closer look

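In 2 of 80 groups of 4 libraries, the gap between 1 library and the nearest of the other 3, as a share of the group's range in scaled counts, was above Dixon's 95% critical value, where chance gives about 4. Ldha in control replicate 4 was at 62439 scaled counts against 50052 to 51943 in the other controls. Txnip in control replicate 4 was at 4162 scaled counts against 1965 to 2341 in the other controls, and without replicate 4 its log2 FC was -1.5 (adjusted p = 0.0113, edgeR).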

How the results depend on the processing

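All 8 called members kept their direction under each of the 13 alternatives. Without the replicate block, 1 member was called higher (Ndrg1) and 3 lower (Txnip, Pdk4 and Pfkfb3), of 2991 genes called. With DESeq2, 5 members were called higher and 53 genes of the further lists, against 26. DESeq2 called 24.3% of all genes, against 18.4% in the main fit. Members called lower were 8 on library totals alone, and 9 on both log2(TPM + 1) and log2(TPM + 0.1). Of all genes, 2911, 3456 and 3473 were called lower there, against 2043 in the main fit. Genes called in the further lists were 42 without the low-count filter and 42 after removing the length trend, where 16.4% and 20.3% of all genes tested were called. Leaving out each replicate gave 1905 to 3124 genes called (1905 without replicate 3 and 1956 without replicate 4), 2 to 3 members higher, 1 to 4 lower (2 without replicate 3 and 1, Txnip, without replicate 4) and 14 to 26 genes of the further lists. The median log2 FC of all genes moved from 0.01 to 0.13 with upper-quartile scaling, -0.19 on library totals alone, -0.10 on log2(TPM + 1) and -0.23 on log2(TPM + 0.1), and the share of calls that were higher was 54.2%, 30.1%, 25.7% and 26.2% there, against 1623 of 3666.

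Signs turned only for members that were not called. On library totals alone these were Pgk1 (-0.05), Mlxip and Bnip3 (both -0.06), Pkm and Pfkl (both -0.07) and Pgam1 (-0.12). On log2(TPM + 1) they were Aldoa (-0.01), Mlxip (-0.17), Pgk1 (-0.18), Bnip3 (-0.19), Pkm and Pfkl (both -0.20) and Pgam1 (-0.25), and on log2(TPM + 0.1) Aldoa (-0.01), Pgk1, Bnip3 and Mlxip (all -0.19), Pkm and Pfkl (both -0.20) and Pgam1 (-0.25). Egln1 was at 0.01 with DESeq2, 0.00 with filterByExpr, 0.09 with upper-quartile scaling, 0.07 without the replicate block and 0.16 after removing the length trend, which also turned Pfkfb4 (0.06) and Pdk1 (0.09). Leaving out each replicate gave -0.05 to 0.18 for Pgam1, -1.39 to 0.11 for Hif1a, -0.37 to 0.14 for Pfkfb4, -0.82 to 0.25 for Pdk1, -0.51 to 0.06 for Egln3, -0.22 to 0.14 for Egln1 and -0.27 to 0.01 for Eno1. The cause was not tested. Depth limited Car9, Hif3a, Aldoc, Slc2a4 and Mlxipl, with totals of 47 to 95 counts over the 8 libraries.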
